A study of Mus musculus with 2 samples.

Results

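The genes described here are 10 targets of the hypoxia response that act outside glycolysis, Vegfa, Adm, Bnip3, Bnip3l, Car9, Ndrg1, Ankrd37, P4ha1, P4ha2 and Ddit4. They were picked by gene symbol, each was found on 1 line of both deposited tables, and they are 10 of 22886 genes there. The data are 2 RNA sequencing libraries of poly(A) RNA, 1 per condition, from wild type C57BL/6 mice that carried a subcutaneous Lewis lung carcinoma (LLC) tumor. According to the labels both hold aerobic tumor cells sorted by FACS, one from mice given a vehicle injection and the other from mice given clodronate, a drug that is usually packed in liposomes and kills the phagocytes that swallow it. The labels give no age, sex, dose, route, interval or number of pooled mice, no gate for "aerobic", and a growth protocol that names EML cells, a blood progenitor line grown with stem cell factor, against the other labels. The libraries are called the vehicle and the clodronate library below. The paper describes no tumor experiment, so no value is set beside a statement of it.

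Cells short of oxygen stabilize the α subunits of the hypoxia-inducible factors (HIF), which pair with ARNT and bind short motifs near their targets. With oxygen present, prolyl hydroxylases mark HIF-α for destruction through the VHL protein. The targets outside glycolysis serve several ends. Vegfa and Adm encode secreted factors that act on blood vessels, Bnip3 and Bnip3l encode mitochondrial receptors for mitophagy, Car9 encodes a cell-surface carbonic anhydrase that helps control pH, P4ha1 and P4ha2 encode catalytic subunits of the enzyme that hydroxylates prolines of collagen, and Ddit4 encodes REDD1, an inhibitor of mTOR signaling. Macrophages in tumors are a known source of VEGF-A.

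The core of the element that HIF binds is ACGTG or GCGTG. Stretches before the annotated gene start, from RefSeq on GRCm38.p6, are shown for the members with the lowest and highest ratios between the libraries (Ddit4, Adm and Car9) and for 2 members whose windows held the most matches (Bnip3 and Ankrd37). They run 5′ to 3′ on the strand of the gene, and capitals mark ACGTG and GCGTG or their complements on the other strand, CACGT and CACGC. The stretches are chr7:110627537-110627656, plus strand for Adm, chr10:59951871-59952020, minus strand for Ddit4, chr4:43506906-43507025, plus strand for Car9, chr7:138909507-138909656, minus strand for Bnip3 and chr8:45999851-46000100, minus strand for Ankrd37.
Adm: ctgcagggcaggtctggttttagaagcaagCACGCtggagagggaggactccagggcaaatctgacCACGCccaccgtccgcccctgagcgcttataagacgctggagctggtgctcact
Ddit4: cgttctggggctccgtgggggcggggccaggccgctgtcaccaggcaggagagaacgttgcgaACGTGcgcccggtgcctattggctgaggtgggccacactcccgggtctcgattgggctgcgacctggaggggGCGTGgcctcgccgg
Car9: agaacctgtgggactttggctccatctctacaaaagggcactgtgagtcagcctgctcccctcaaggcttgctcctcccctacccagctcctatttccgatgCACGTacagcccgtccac
Bnip3: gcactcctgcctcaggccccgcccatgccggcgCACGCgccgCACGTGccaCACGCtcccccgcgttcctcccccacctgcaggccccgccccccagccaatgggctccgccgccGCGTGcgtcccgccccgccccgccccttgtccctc
Ankrd37: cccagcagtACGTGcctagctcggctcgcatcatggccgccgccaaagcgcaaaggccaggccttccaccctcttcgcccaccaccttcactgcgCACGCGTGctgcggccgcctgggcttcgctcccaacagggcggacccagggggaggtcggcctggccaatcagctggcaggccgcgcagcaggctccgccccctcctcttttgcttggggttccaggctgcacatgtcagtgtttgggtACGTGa
In the 250 bases before the start, ACGTG on either strand was in 16.6% and GCGTG in 28.2% of 32851 windows of mouse genes, and 38.6% held at least 1 of the 2. Among the 8 members with a window, Adm had 2 GCGTG and no ACGTG, Car9 had 1 ACGTG, Ddit4 had 1 of each, Bnip3 had 2 ACGTG, which overlap in CACGTG, and 3 GCGTG, and Ankrd37 had 2 of each, of which the GCGTG pair overlaps. P4ha1 and P4ha2 each had 1 ACGTG and 2 GCGTG. The window at the main start of Vegfa had 0, and a window at a start inside the gene had 1 of each. Bnip3l and Ndrg1 had no entry in the table used. A match describes these letters and is not evidence of binding.

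Levels are given in RPKM, read numbers that the authors scaled to transcript length and library size, so that levels can be compared between genes. RPKM carry no read numbers, but their low values fell on steps. Among 522 loci with 1 RefSeq accession and an estimated 0.5 to 20 reads in both libraries, 515 (98.7%) had a ratio of vehicle to clodronate RPKM that, divided by 0.816, matched a ratio of 2 whole numbers up to 25 within 0.01%. From these steps and transcript lengths, the RPKM correspond to scaling totals of about 13800000 reads for the vehicle library and 11200000 for the other. The reads behind each member were estimated in this way, and 95% intervals from them cover counting error only, not the spread between mice, sorts or library preparations. With 1 library per condition no test and no p-value can be given, and differences below compare 2 libraries. Log2 ratios, and the counts of genes past 2-fold or 3-fold, were taken as clodronate over vehicle after 1 RPKM was added to each value, a step that makes changes of low genes look smaller. Ratios with a counting interval are of the RPKM themselves.

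**Figure D1:**
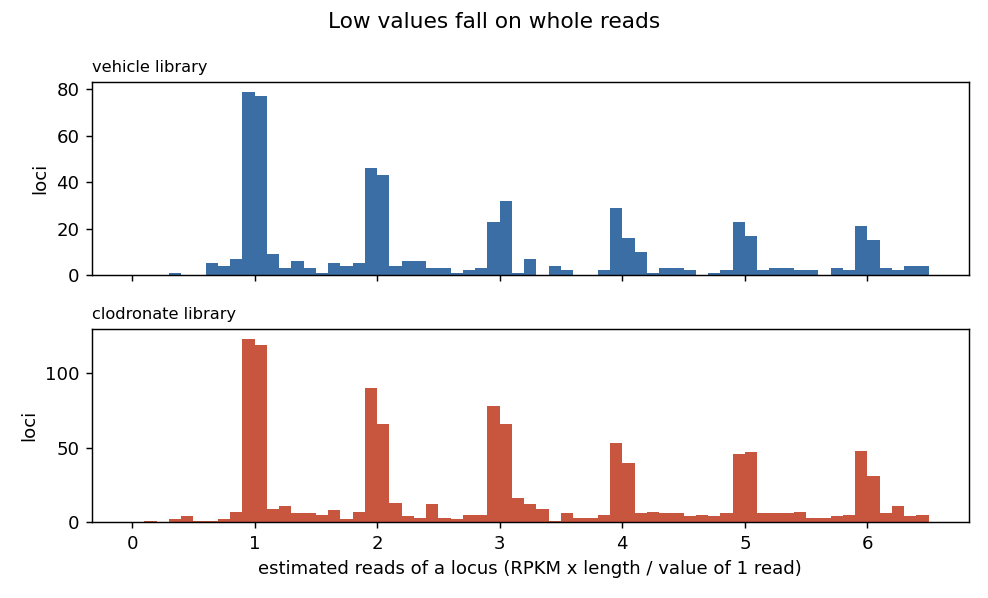
Number of loci (vertical axis) against the estimated reads of a locus (horizontal axis, reads) in the vehicle (top) and the clodronate library (bottom), for loci with 1 RefSeq accession. The loci pile up at whole numbers of reads from 1 to 6 in both libraries.

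Both libraries carried macrophage RNA at a high level. All 14 macrophage markers had at least 10 RPKM in both, with sums of 28326 RPKM in the vehicle library and 26625 RPKM in the clodronate one. Markers of other cells had lower sums. Those in the vehicle and the clodronate library were 160 and 76.9 RPKM for 10 fibroblast markers, 3.34 and 7.90 RPKM for 8 endothelial, 12.9 and 12.0 RPKM for 8 epithelial, 39.1 and 42.4 RPKM for 7 neutrophil, 11.1 and 8.85 RPKM for 7 T and NK cell and 6.81 and 5.69 RPKM for 8 blood progenitor markers. Single fibroblast genes were not low, and Dcn and Col3a1 had 77.3 and 62.1 RPKM in the vehicle library, above the upper quartile of 27.6 RPKM over genes averaging 1 RPKM or more. Epcam and Gata1 were listed at 0 in both, but other markers of their lists were present. Cdh1 had 6.14 and 6.44 RPKM, Krt8 3.67 and 1.33 RPKM and Krt18 2.97 and 3.19 RPKM. Of the progenitor markers, Cd34 had 2.60 and 1.02 RPKM and Tal1 1.39 and 2.31 RPKM. The neutrophil sums came from S100a8 (12.7 and 23.1 RPKM) and Csf3r (26.4 and 19.3 RPKM), with the other 5 markers at 0 in both. Cd4 (10.3 and 7.72 RPKM) made up most of the T and NK cell sums, and 3 markers of that list were at 0 in both. Beyond the epithelial markers, the tumor cells that the labels name were not checked for. In such bulk samples, fewer cells of a type and less RNA per cell cannot be told apart.

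The 10 genes spanned a wide range of levels and differed between the libraries in both directions. They ranged from 2.85 RPKM for Car9 to 91.3 RPKM for Vegfa in the vehicle library and from 1.43 RPKM for Adm to 80.8 RPKM for Vegfa in the clodronate library. Of the 10, 6 had a mean of at least 10 RPKM and 4 (Adm, Car9, P4ha2 and Ddit4) lay at 5.32 RPKM or less. In the vehicle library the order from the highest was Vegfa, Bnip3, P4ha1, Ndrg1, Bnip3l, Ankrd37, Ddit4, Adm, P4ha2 and Car9. In the clodronate library Ndrg1 stood in place 2 instead of 4 and Car9 in place 7 instead of 10, while Adm and Ddit4 took the last places. Vegfa alone made up 31.9% of the summed RPKM of the 10 genes in the vehicle and 30.3% in the clodronate library.

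**Figure D2:**
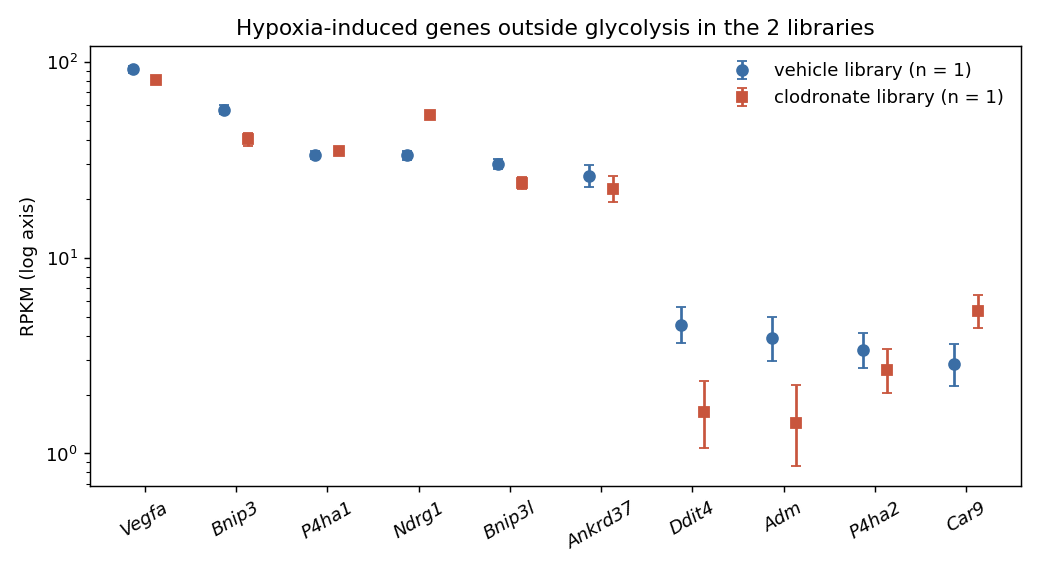
RPKM (vertical log axis) of each of the 10 genes in the vehicle (blue circles) and the clodronate library (red squares), 1 library each, with bars for the 95% Poisson counting interval from the estimated reads. Vegfa is highest in both libraries, and Adm, Ddit4, P4ha2 and Car9 lie below 6 RPKM in both.

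Of the secreted factors, Vegfa was abundant and Adm scarce. Vegfa (chr17:46153943-46169326 of mm9), which encodes the main growth factor of blood vessels, had 91.3 RPKM in the vehicle library and 80.8 RPKM in the clodronate one. That placed it 8.02% and 9.19% from the top of the 10982 genes kept, those averaging 1 RPKM or more. The clodronate library had 0.885 times the vehicle level (95% counting interval 0.830 to 0.945), from roughly 2229 and 1611 reads, an estimate made coarse by its 6 RefSeq transcripts, and its log2 ratio went from -0.17 to -0.41 after correction for GC content and length. Adm (chr7:117771183-117773333), which encodes the vasodilator peptide adrenomedullin, had 3.88 RPKM in the vehicle library and 1.43 RPKM in the clodronate one. Its low values corresponded to 63 and 19 reads, and the ratio of clodronate to vehicle RPKM was 0.369 (0.209 to 0.625). Both factors were lower in the clodronate library by more than counting error. Of 8 fibroblast markers kept, 7 were lower in the same library as well, against 48.4% of all genes kept. The matrix proteoglycan gene Dcn had 77.3 and 28.4 RPKM, while Col1a1 was higher, with 2.32 and 5.40 RPKM. Postn (2.21 and 0.364 RPKM) passed the filter only through the vehicle library. Both endothelial markers kept were higher but low, Pecam1 with 1.24 and 3.33 RPKM and Cdh5 with 0.480 and 3.24 RPKM. Cdh5 passed the filter only through the clodronate library, and Vwf, below the filter, had 0.967 and 0.443 RPKM. The part of such cells in the differences of Vegfa and Adm was not tested.

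The mitophagy receptors were both lower in the clodronate library. Bnip3 (chr7:146082519-146101189), whose product sits in the outer mitochondrial membrane, had 57.0 RPKM in the vehicle library and 40.2 RPKM in the clodronate one, a ratio of 0.706 (0.642 to 0.775) from about 1222 and 704 reads. Its paralog Bnip3l (chr14:67604077-67627714), also called Nix and known for the clearance of mitochondria from maturing red cells, had 29.99 RPKM and 23.97 RPKM. Here the ratio was 0.799 (0.731 to 0.873), from about 1256 and 819 reads. Bnip3 was the more abundant of the pair in both libraries, 1.90 times the Bnip3l level in the vehicle and 1.68 times in the clodronate library. Their transcripts are poor in G and C, 41.6% for Bnip3 and 42.0% for Bnip3l, and the tenth of the genes kept with the least G and C, up to 42.1%, had a median log2 ratio of -0.24 between these libraries. Correction for GC content and length brought the log2 ratio from -0.49 to -0.16 for Bnip3 and from -0.31 to -0.11 for Bnip3l. The mouse gene table also lists a pseudogene, Bnip3l-ps, and whether reads were shared with it was not tested.

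Car9 and Ndrg1 went the other way. Car9 (chr4:43519898-43526597), a common marker of hypoxic tumor cells, had 2.85 RPKM in the vehicle library and 5.32 RPKM in the clodronate one, which corresponded to 69 and 105 reads and a ratio of 1.86 (1.36 to 2.56). Ndrg1 (chr15:66760880-66801203), a gene induced by hypoxia and by differentiation, had 33.2 RPKM and 53.4 RPKM. About 1232 and 1614 reads gave a ratio of 1.61 (1.49 to 1.73). These 2 genes were the only members whose counting interval lay above 1, and Ndrg1 stood at 11.7 times the level of Car9 in the vehicle library and 10.04 times in the clodronate one.

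Ankrd37 and Ddit4, which encode intracellular proteins, stood at different levels. Ankrd37 (chr8:47082262-47085204), which encodes a small ankyrin repeat protein, had 26.1 RPKM in the vehicle library and 22.5 RPKM in the clodronate one, from 252 and 177 reads. The ratio was 0.861 (0.706 to 1.05), an interval that includes 1, and after correction for GC content and length its log2 ratio changed sign, from -0.21 to 0.036. Ddit4 (chr10:59412423-59414518) had 4.55 RPKM and 1.62 RPKM, from 93 and 27 reads, a ratio of 0.356 (0.223 to 0.551) and the lowest of the 10. Ddit4 is also induced by the integrated stress response, in which ATF4 raises genes of amino acid supply. Of 8 genes of that response 6 were kept, 4 higher and 2 lower in the clodronate library and 0 of them passed 2-fold once 1 RPKM was added. Their median log2 ratio was 0.20. Lower were Atf4 itself, with 384 RPKM in the vehicle library and 329 RPKM in the clodronate one, and Asns, an ATF4 target that makes asparagine. Asns had 7.41 and 3.51 RPKM, 2.11 times as much in the vehicle library before 1 RPKM was added. Higher were Ddit3 with 44.7 and 59.8 RPKM, Atf3 with 165 and 189 RPKM, Ppp1r15a with 132 and 172 RPKM and Sesn2 with 4.05 and 4.82 RPKM. Trib3 (0.0393 and 0.529 RPKM) and Chac1 (0 and 0.586 RPKM), below the filter, were higher too. The part of this response in the Ddit4 difference was not tested.

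The catalytic subunits of collagen prolyl 4-hydroxylase differed from each other in level, and neither differed between the libraries by more than counting error. P4ha1 (chr10:58786044-58836052) had 33.5 RPKM in the vehicle library and 35.0 RPKM in the clodronate one, from about 1773 and 1512 reads, with a ratio of 1.04 (0.975 to 1.12). P4ha2 (chr11:53914426-53945169) had 3.39 and 2.66 RPKM, from about 96 and 61 reads over 2 RefSeq transcripts, with a ratio of 0.783 (0.555 to 1.08). Both intervals include 1, so no difference beyond counting error was detectable at this depth for either gene, and the interval of P4ha2 reached down to 0.555. P4ha1 stood at 9.87 times the level of P4ha2 in the vehicle and 13.2 times in the clodronate library. The partner subunit P4hb, which is also a general protein disulfide isomerase, had 166 and 219 RPKM, and the lysyl hydroxylases Plod1 and Plod2, which modify collagen too, had 48.1 and 79.0 RPKM and 2.40 and 1.11 RPKM. The collagen cross-linking enzyme Lox was near 0, at 0.128 and 0.209 RPKM.

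**Figure D3:**
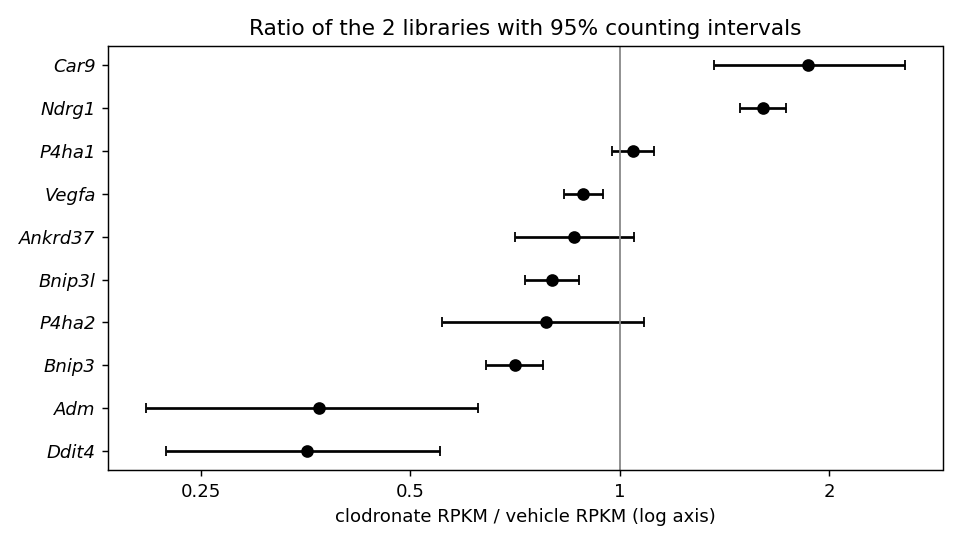
Ratio of clodronate to vehicle RPKM (horizontal log axis) for each of the 10 genes, ordered by the ratio, with 95% counting intervals (bars) and a line at 1. The intervals of Car9 and Ndrg1 lie above 1, those of P4ha1, Ankrd37 and P4ha2 include 1, and those of the other 5 genes lie below 1.

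Read across the 10 genes, 5 counting intervals lay below 1 (Vegfa, Adm, Bnip3, Bnip3l and Ddit4), 2 above 1 and 3 included 1. Intervals below 1 were found for 36% of 10844 genes with a transcript length, and intervals above 1 for 39.2%, so that a difference beyond counting error was common among all genes of these 2 libraries. The log2 ratio (RPKM + 1) was below 0 for 7 of 10 members and for 48.4% of the genes kept. Its median was -0.24 over the 10 members and 0.019 over the genes kept, whose middle 50% ran from -0.38 to 0.40. No member was at least 3-fold higher or lower on this scale, where 2.86% of the genes kept were 3-fold higher and 2.32% 3-fold lower. At 2-fold, Adm (-1.004) and Ddit4 (-1.08) were lower and 0 members higher, against 6.77% of the genes kept lower and 6.95% higher. Adm lay at the edge of 2-fold and no longer passed it after correction for GC content and length (-0.91), whereas Ddit4 did (-1.20). Adm and Ddit4 are low genes, and among 2466 genes with a mean of 2 to 6 RPKM, 11.3% were at least 2-fold lower and 12.0% at least 2-fold higher, whereas among 2879 genes with a mean of 20 to 100 RPKM, where the 6 more abundant members lie, these shares were 3.02% and 2.78%.

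**Figure D4:**
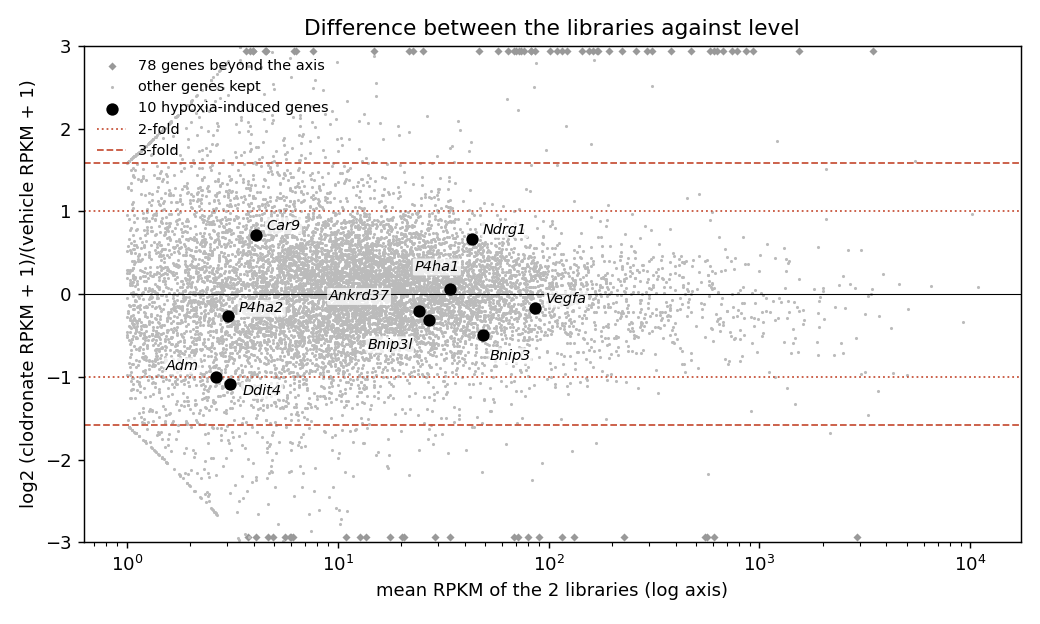
Log2 ratio of clodronate over vehicle (vertical axis, RPKM + 1) against the mean RPKM of both libraries (horizontal log axis) for the genes kept (grey) and the 10 hypoxia targets (black), with lines at 2-fold (dotted) and 3-fold (dashed). Diamonds at the edges stand for 78 genes past 3 on the log2 scale, and Adm and Ddit4 lie on or just past the lower 2-fold line.

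Other genes of the hypoxia response also went both ways. Of 30 further hypoxia-induced genes outside glycolysis 26 were kept. In the clodronate library 12 of them were higher and 14 lower, where 48.4% of the genes kept were lower. On the RPKM + 1 scale 1 of the 26 passed 2-fold upward and 2 downward, against 6.95% and 6.77% of the genes kept. The median log2 ratio of the 26 was -0.055, against 0.019 over the genes kept. The most abundant were Hmox1, which degrades heme, with 396 RPKM in the vehicle library and 789 RPKM in the clodronate one, the transcriptional repressor Bhlhe40 with 243 and 312 RPKM, the lipid droplet coat gene Plin2 with 186 and 255 RPKM, and P4hb. Past 2-fold on the RPKM + 1 scale were Ak4, Edn1 and Gbe1. Ak4, an adenylate kinase of mitochondria, had 0.572 and 2.44 RPKM and passed the filter only through the clodronate library. Edn1, which encodes the vasoconstrictor endothelin-1, had 2.61 and 0.540 RPKM and passed it only through the vehicle library. Gbe1, the glycogen branching enzyme, had 12.99 and 5.68 RPKM. Hilpda, a lipid droplet protein whose gene is strongly induced by hypoxia, had 102 and 89.6 RPKM and thus stood close to Vegfa in level in both libraries.

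All 19 glycolysis genes under HIF-1 were kept. In the clodronate library 13 of them were higher and 6 lower, where 48.4% of the genes kept were lower. The median log2 ratio of the 19 was 0.35, against -0.24 for the 10 members and 0.019 for the genes kept. Pkm, the pyruvate kinase gene, had 636 and 1028 RPKM, Aldoa 652 and 884 RPKM, Gapdh 634 and 835 RPKM and Pgam1 423 and 535 RPKM. Eno1, with the highest log2 ratio of the list, had 109 and 210 RPKM. Among the 6 lower genes were Aldoc, an aldolase, with 9.78 and 3.02 RPKM, the only gene of this list past 2-fold on the RPKM + 1 scale, and Pfkp with 86.6 and 64.6 RPKM. The glucose transporter gene Slc2a1 had 86.2 and 83.1 RPKM. These medians are without correction for GC content and length. With it the median of the members was -0.14, and no corrected median was computed for the glycolysis list. The difference between the 2 lists was not tested, since each condition has 1 library.

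Among the HIF subunits and oxygen sensors, 8 of 10 genes were kept, 4 higher and 4 lower, 0 of them at least 2-fold on the RPKM + 1 scale. Hif1a, the α subunit most macrophages use, had 56.6 RPKM in the vehicle library and 57.5 RPKM in the clodronate one. Epas1, which encodes HIF-2α, had 4.31 and 2.62 RPKM, and Arnt had 25.01 and 19.97 RPKM. Of the prolyl hydroxylases that sense oxygen, Egln1 had 12.8 and 13.01 RPKM, Egln2 had 8.46 and 15.7 RPKM and Egln3, itself a target of HIF, had 8.25 and 6.00 RPKM. The mRNA of a HIF subunit does not report its protein, which oxygen controls.

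**Figure D5:**
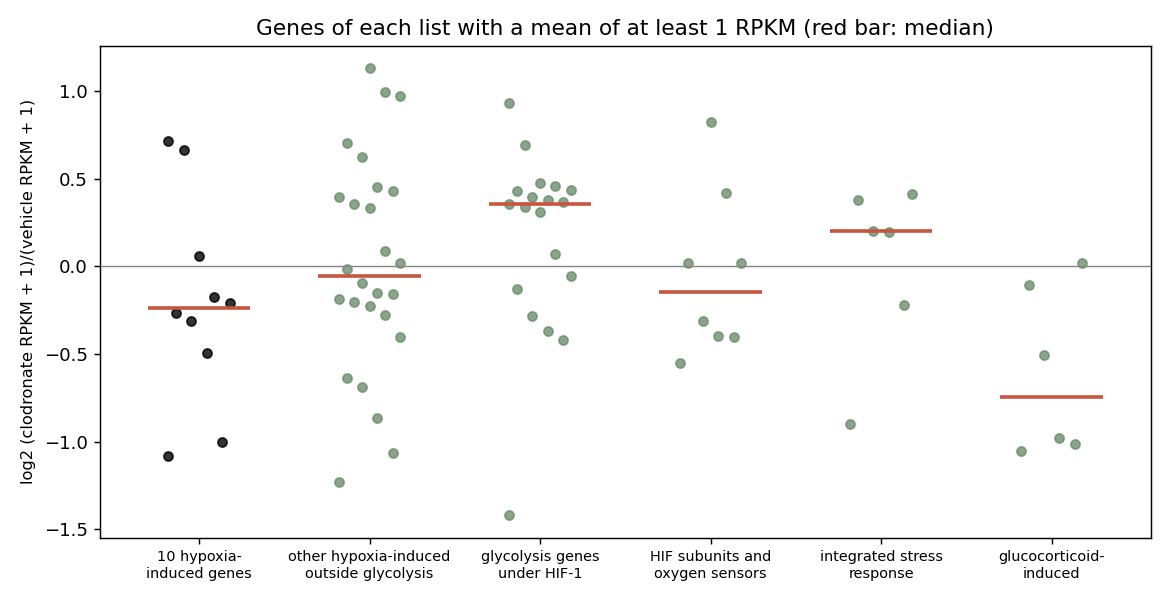
Log2 ratio of clodronate over vehicle (vertical axis, RPKM + 1) of each gene averaging 1 RPKM or more, by gene list (horizontal axis), with red bars at the medians. The 10 members lie between -1.08 and 0.71 with a median of -0.24, and the glycolysis genes have a median of 0.35.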

How the data were processed

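The authors deposited, per the file headers, 1 RPKM value for each of 23170 loci in each of the 2 libraries, with RefSeq accessions, symbols and mm9 positions. The submitters' processing notes name CASAVA 1.8.2, TopHat2 2.0.9, Bowtie 0.12.9, Cufflinks 2.2.1, Cuffdiff and mm9, with no role stated, and whether counting used strand is not given in the sources used here. Starts in the files count from 0, and 1 was added.

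Lines of 1 symbol were summed, and 26 symbols that had become numbers were replaced by the accession, which left 22886 genes. The log2 ratio used a pseudocount of 1 RPKM, and 10982 genes averaging 1 RPKM or more were kept. No count model was used. The read estimates were chosen after the data were seen. RPKM were multiplied by the GENCODE M21 transcript length less 202 bases and divided by the value of 1 read. For the vehicle library this value was fitted on 166 loci in the lowest step. For the clodronate library the vehicle value was divided by 0.816. That was the most frequent ratio of vehicle to clodronate RPKM, held by 72 loci, among loci under 1 RPKM in both. A separate fit on 252 loci gave the scaling total of the clodronate library. For 4 members (Adm, Car9, Ankrd37 and Ddit4) a single pair of whole numbers lay within 10% of the estimate and matched the ratio within 0.001%, and was used. Intervals are 95% Clopper-Pearson for ratios and exact Poisson for levels. PCR copies are not told apart from molecules. The steps were tested on simulated data.

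The members and lists were chosen with earlier results of these data known. Named were all members and genes of the lists, which are those for hypoxia, glycolysis, HIF and oxygen sensing, the integrated stress response, glucocorticoid response and 7 cell types. The alternatives were other pseudocounts, filters, scalings, a GC content and length correction and 2-fold. Ly6g and Trac were found under no symbol. Python 3.11.15, numpy 2.4.6, pandas 2.3.3, scipy 1.17.1 and matplotlib 3.10.9 were used.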

Additional observations from a re-analysis of the deposited data

How the results depend on the processing

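No paired analysis was possible because there was a single library for each injection, and for the same reason none could be left out. The median log2 ratio of the members stayed below 0 in every planned setting, from -0.29 with upper quartile scaling to -0.14 after correction for GC content and length. Other filters and the highest line of a repeated symbol leave the ratio of a member as it was. Another pseudocount cannot change its direction, so only the scalings and the GC content and length correction could reverse one. Of 66 values of single members under 7 alternatives, these included, 65 kept their direction and 0 moved by 1.5 times or more in fold. The exception was Ankrd37, at 0.036 after that correction, which also brought Bnip3 from -0.49 to -0.16, Bnip3l from -0.31 to -0.11 and Vegfa from -0.17 to -0.41. The correction removes the trend of ratios with GC content, which ran from -0.24 to 0.29 over 10 bins. No member reached 3-fold in any setting, and 2 members were lower at 2-fold, of which Adm (-0.91) no longer passed 2-fold after that correction. Of all genes, 532 were at least 3-fold higher and 480 lower with a pseudocount of 0.1 RPKM, 127 and 101 among genes averaging 5 RPKM or more, and 763 and 744 were past 2-fold, against 314 and 255 as reported. These settings change by construction how many genes can pass. At an average of 5 RPKM or more only 6 members were left. The counts of intervals below and above 1, 5 and 2, were the same with no bases taken off the transcript length and with reads 20% lower, alternatives chosen after seeing the data. Both alter mainly the width of an interval and leave the ratio in place, so they test little. The intervals were not computed after the GC content and length correction, which shifts the ratios.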

Other observations

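Ddit4 is known to be induced by glucocorticoids as well as by hypoxia, and of 7 glucocorticoid-induced genes most were lower in the clodronate library. Of the 6 averaging 1 RPKM or more, 5 were lower and 1 higher, 2 of them at least 2-fold lower on the RPKM + 1 scale, where 48.4% of the genes kept were lower and 6.77% at least 2-fold lower, and the median log2 ratio was -0.74, against 0.019 over the genes kept. Tsc22d3, which encodes the leucine zipper protein GILZ, had 283 RPKM in the vehicle library and 136 RPKM in the clodronate one. Fkbp5, a co-chaperone of the glucocorticoid receptor, had 25.1 and 12.0 RPKM, and the kinase gene Sgk1 had 252 and 127 RPKM. Klf9 stood at 27.4 and 19.0 RPKM and Per1, a clock gene, at 96.6 and 89.7 RPKM, while Dusp1, a phosphatase of MAP kinases, had 786 and 796 RPKM. Zbtb16, below the filter, had 1.29 and 0.597 RPKM. Each condition has 1 library, so no test was made, and no steroid level or time of day is given by the labels. The list was chosen with earlier results of these data known, and its ratios were not corrected for GC content or length. Whether glucocorticoids had a part in the Ddit4 difference was not tested.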
